A study of Homo sapiens with 12 samples.

Results

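The 10 genes examined here mark or drive the epithelial-mesenchymal transition (EMT), and their accessible chromatin was described in HT1080 cells, an established human fibrosarcoma line. They were the transcription factor genes SNAI1, SNAI2, TWIST1, TWIST2, ZEB1, ZEB2 and PRRX1, the cadherin genes CDH1 and CDH2, and the intermediate filament gene VIM. They are 10 of the 20037 protein-coding genes that RefSeq places on the assembled chromosomes of GRCh38. For each gene, every summit of the deposited peak list that lay inside the gene or within 10 kb of it was taken, where a summit is the position of strongest signal in an accessible interval. This gave 59 of 188019 summits, in 44 of 91278 intervals on 8 chromosomes. Summits were taken by position only, so their strength was free to vary above the threshold of the peak list. The genes themselves were chosen with earlier results of these data known.

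Cells had migrated for 48 h in rat tail type I collagen gels of 3 strengths, 0.3 (low), 1 (medium) and 1.7 mg/mL (high), each with 4 libraries, making 12. All 3 groups received GM6001, a broad matrix metalloproteinase inhibitor, at 20 µM, so no group was without it. Accessibility was measured by ATAC-seq, in which a transposase cuts and tags open DNA. The peak list was pooled over the series and names no library or concentration, so no value here compares concentrations, none has replicates, and the depth of each library is unknown. In a pooled bulk assay, a site open in few cells and a site weakly open in many cannot be told apart.

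In EMT, epithelial cells lose the junctions that hold them in a sheet and gain the shape and motility of mesenchymal cells. SNAI and ZEB proteins are zinc finger repressors that bind E-box DNA of the form CACCTG, including sites at the gene for the epithelial adhesion protein E-cadherin, CDH1. TWIST proteins are basic helix-loop-helix factors, PRRX1 is a homeodomain factor of mesenchyme, and N-cadherin (CDH2) and vimentin (VIM) are widely used mesenchymal markers. MicroRNAs of the miR-200 family target ZEB1 and ZEB2 transcripts. A fibrosarcoma is of mesenchymal origin, so these genes are described here in cells that did not begin as an epithelium.

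The promoter windows below show which gene starts held an accessible summit and which did not. Each runs from 250 bases before to 50 bases after a RefSeq start site (GRCh38.p14) on the gene's own strand, so the start site is base 251. Capitals mark CACCTG on either strand (read as CAGGTG on the other), the E-box bound by SNAI and ZEB factors. RefSeq windows were matched for 6 of the 10 genes. They are TWIST2, ZEB1, ZEB2, CDH2, PRRX1 and VIM; SNAI1, SNAI2, TWIST1 and CDH1 were not matched. ZEB1 had 7 windows and CDH2 had 2, and for these the window that held a summit is shown.
TWIST2, chr2:238847835-238848134, forward strand, summit at base 214: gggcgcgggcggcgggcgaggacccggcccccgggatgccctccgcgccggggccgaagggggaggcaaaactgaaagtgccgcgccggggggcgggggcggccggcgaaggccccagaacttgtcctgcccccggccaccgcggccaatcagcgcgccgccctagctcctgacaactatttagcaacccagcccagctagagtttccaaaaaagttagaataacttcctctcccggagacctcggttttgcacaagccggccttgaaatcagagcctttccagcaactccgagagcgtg
ZEB1, chr10:31318966-31319265, forward strand, summit at base 25: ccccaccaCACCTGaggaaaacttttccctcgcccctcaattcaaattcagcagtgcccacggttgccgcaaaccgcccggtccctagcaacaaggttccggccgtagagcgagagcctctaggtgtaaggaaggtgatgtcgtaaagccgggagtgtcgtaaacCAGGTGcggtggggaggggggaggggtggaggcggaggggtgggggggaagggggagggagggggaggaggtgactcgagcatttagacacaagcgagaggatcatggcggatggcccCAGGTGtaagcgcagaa
CDH2, chr18:28177081-28177380, reverse strand, summit at base 111: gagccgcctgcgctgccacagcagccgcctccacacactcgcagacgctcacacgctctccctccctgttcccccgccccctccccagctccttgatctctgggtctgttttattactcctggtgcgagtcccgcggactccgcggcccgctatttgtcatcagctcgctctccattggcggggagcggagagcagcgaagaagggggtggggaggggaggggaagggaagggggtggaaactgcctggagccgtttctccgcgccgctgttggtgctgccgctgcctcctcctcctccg
VIM, chr10:17227991-17228290, forward strand, no summit: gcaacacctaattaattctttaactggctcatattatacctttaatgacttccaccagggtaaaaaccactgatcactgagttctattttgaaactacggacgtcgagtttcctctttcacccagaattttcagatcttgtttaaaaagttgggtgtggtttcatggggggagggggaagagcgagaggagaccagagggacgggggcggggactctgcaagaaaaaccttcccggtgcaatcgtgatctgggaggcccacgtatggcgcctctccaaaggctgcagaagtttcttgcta
ZEB2, chr2:144520070-144520369, reverse strand, no summit: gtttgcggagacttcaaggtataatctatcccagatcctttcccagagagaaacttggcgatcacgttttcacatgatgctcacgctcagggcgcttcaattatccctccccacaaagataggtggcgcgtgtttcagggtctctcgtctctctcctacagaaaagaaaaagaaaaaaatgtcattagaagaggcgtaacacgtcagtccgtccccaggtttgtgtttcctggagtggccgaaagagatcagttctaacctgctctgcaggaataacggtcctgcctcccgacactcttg
PRRX1, chr1:170663881-170664180, forward strand, no summit: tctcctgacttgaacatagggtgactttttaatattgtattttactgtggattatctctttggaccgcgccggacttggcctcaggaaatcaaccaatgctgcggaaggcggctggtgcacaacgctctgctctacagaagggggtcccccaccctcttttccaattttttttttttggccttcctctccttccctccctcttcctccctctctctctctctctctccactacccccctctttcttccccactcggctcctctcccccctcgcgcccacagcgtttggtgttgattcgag

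3 kinds of start are seen in these windows. The starts of TWIST2, ZEB1 and CDH2 held a summit, the VIM window was entered by an accessible interval over 106 of its bases with the summit further downstream, and no interval touched the ZEB2 or PRRX1 window. Among the windows shown, G and C content was 66.7% in TWIST2, 67% in CDH2 and 61.7% in ZEB1, which held a summit, and 48% in VIM, 49% in ZEB2 and 53% in PRRX1, which did not. The 6 ZEB1 windows not shown held no summit and ranged from 42% to 72.3%, with 3 of them (65%, 72% and 72.3%) above the window shown, and the other CDH2 window had 40.7%. Over 22199 windows of protein-coding genes, the median G and C content was 66.7% in the 9344 windows that held a summit and 57.7% in the 12855 that did not. The CpG dinucleotides numbered 29 in the TWIST2 window, 23 in CDH2 and 17 in ZEB1, against 14 in ZEB2, 11 in PRRX1 and 10 in VIM, and the medians over all windows with and without a summit were 28 and 11. The ZEB1 windows not shown held 7 to 35 CpG and the other CDH2 window 4. Within ZEB1, neither measure separated the window with a summit from those without. A ZEB1 window without a summit was not always outside an accessible interval. The interval with the ZEB1 start summits covered all 300 bases of the window with 72%. It also covered 116 bases of the one with 72.3% and 166 of the one with 58.3%. No interval touched the ZEB1 windows with 65%, 49.7% and 42%.

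The ZEB1 window was the only one of the 6 shown with CACCTG. It held 3 matches on either strand, at bases 9 to 14, 166 to 171 and 284 to 289, and its summit lay at base 25. At least 1 match was present in 19.9% of the 22199 windows and at least 3 in 0.559%. Of the other ZEB1 windows, the one at chr10:31318167-31318466 had 1 match and the remaining 5 had 0. The broader E-box CANNTG, of which CACCTG is a case, matched 3 times in the ZEB1 window shown, once in that of ZEB2 and 0 times in those of TWIST2, CDH2, VIM and PRRX1, against 65.1% of all windows with a match. GGGCGG, the GC box, matched 4 times on either strand in the TWIST2 window, once in those of CDH2, VIM and ZEB1, and 0 times in those of ZEB2 and PRRX1, while 56.3% of all windows held it. No AP-1 site TGANTCA and no TATAAA was found in the 6 windows shown, against 6.15% and 9.47% of all windows; the CDH2 window not shown, at chr18:28036592-28036891, held 1 of each. Matches describe letters in a window and are not evidence of binding.

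All 10 genes had at least 1 summit in the gene or within 10 kb, and so did 89.8% of protein-coding genes. A summit within 1000 bp of a gene end was present at 7 of the 10, against a background of 65.7%. The share of the EMT genes was thus near that of all genes on both counts. The genes without a summit near an end were ZEB2, CDH1 and PRRX1. Where RefSeq lists a start site, a summit lay within 1000 bp of it at 4 of 6 genes, and the background for this measure was 67.7%. A summit lay inside a promoter window at 3 of these 6 genes and at 52.8% of protein-coding genes with a window.

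**Figure D1:**
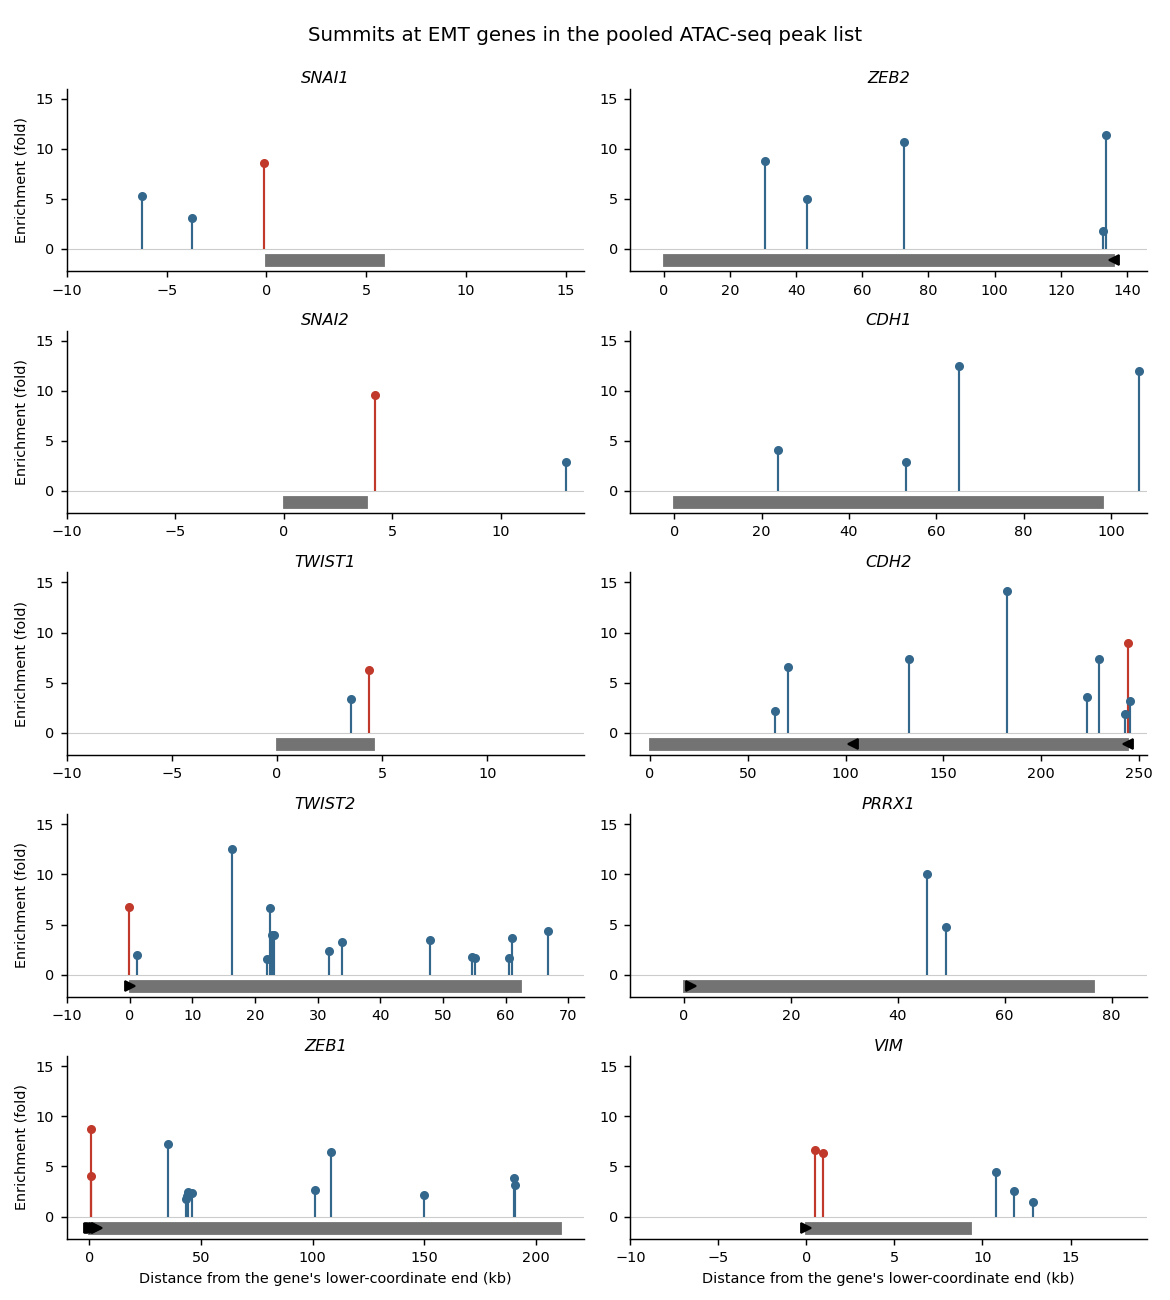
Summits at the 10 EMT genes in the pooled peak list. Each panel plots enrichment (fold over local background, vertical axis) against distance in kb from the gene's lower-coordinate end (horizontal axis); grey bars are genes, arrowheads are listed RefSeq start sites with their direction, red points are summits within 1 kb of a gene end and blue points are the others. ZEB2, CDH1 and PRRX1 have no red point, and TWIST2 has 15 summits.

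Enrichment is the authors' value for each peak and is the fold of the signal at the summit over the local background. The numbers in brackets after an enrichment are a 95% exact Poisson interval on the number of overlapping fragments (the pileup), divided by the background. They cover counting error only and take the counts as independent. Fragments are an assumed unit, because the list does not say whether fragments or single reads were counted. Over the 59 summits the median enrichment was 3.99 and the median pileup 139 fragments, and over all 180794 summits on autosomes, X and Y these were 4.27 and 100. The 9 summits near a gene end had a median enrichment of 6.79 and the 50 others 3.51. Over the 14880 summits near an end of any protein-coding gene the median was 8.99. For the strongest summit per gene, the median over the 10 genes was 9.82, against 12.4 over the protein-coding genes with a summit, and 3 of the 10 lay above that value. At the gene ends alone the median was 8.59 over 7 genes and 11.7 over all protein-coding genes with such a summit. None of the 7 exceeded 11.7, and they lay between the percentiles 23.2 and 37.7 of those genes. The difference was not tested.

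**Figure D2:**
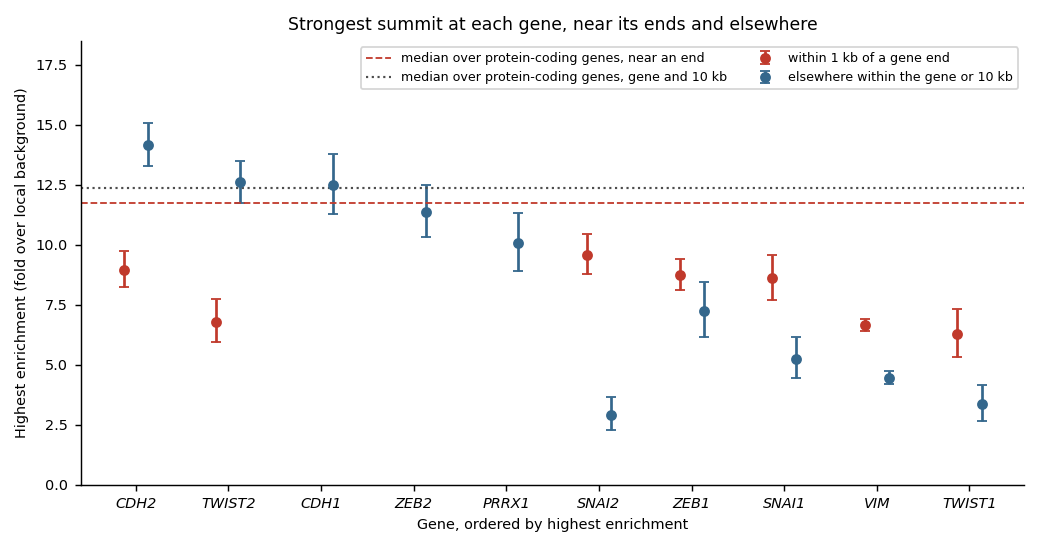
Highest enrichment (fold over local background, vertical axis) at each EMT gene, near a gene end (red) and elsewhere in the gene or within 10 kb (blue). Bars are 95% exact Poisson intervals of the pileup and cover counting error only; the dashed and dotted lines are medians over protein-coding genes. All 7 red points lie below the dashed line at 11.7, and CDH2 has the highest blue point at 14.2.

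The order by highest enrichment ran from CDH2 (14.2) through TWIST2 (12.6), CDH1 (12.5), ZEB2 (11.4), PRRX1 (10.1), SNAI2 (9.58), ZEB1 (8.74), SNAI1 (8.59) and VIM (6.64) to TWIST1 (6.27). Neighbours in this order overlapped in their counting intervals except SNAI1 and VIM. Ordered by pileup, VIM moved from rank 9 to rank 1 and PRRX1 from rank 5 to rank 9, while SNAI1 and TWIST1 stayed at ranks 8 and 10. The strongest summit lay within 1000 bp of a gene end at 5 genes, SNAI1, SNAI2, TWIST1, ZEB1 and VIM, and elsewhere at TWIST2, ZEB2, CDH1, CDH2 and PRRX1. Among protein-coding genes with a summit it lay near an end in 47.2%.

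The SNAI genes are short and had their strongest site at the end from which they are transcribed. As background, SNAI1 and CDH1 are transcribed from the lower-coordinate end and SNAI2 and TWIST1 from the upper; the tables used here give no strand for these 4. SNAI1, a direct repressor of E-cadherin, spans 49982980 to 49988886 on chromosome 20. Its strongest summit lay 113 bp below the lower end, in the interval 49982553 to 49983163, with an enrichment of 8.59 (7.68 to 9.57) and 326 overlapping fragments over a background of 37.1 fragments. Summits 3750 and 6223 bp below the same end had enrichments of 3.10 and 5.24. Inside SNAI1 there was none, and above the gene the next summit was 14.5 kb away. All 3 SNAI1 sites therefore lay on the upstream side.

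SNAI2 encodes SLUG, a repressor of the same family known from neural crest and mesenchyme, and spans 48917598 to 48921429 on chromosome 8. A summit 384 bp above its upper end, in the interval 48921297 to 48922098, had an enrichment of 9.58 (8.76 to 10.5) and 502 overlapping fragments. This was the highest enrichment at any of the 7 accessible gene ends, but its counting interval overlapped that of the CDH2 start (8.22 to 9.72). By pileup the ends of VIM (2703), ZEB1 (690) and CDH2 (561) were higher. The same summit lay 256 bp inside the end of the long noncoding RNA gene LOC107986942, so the site cannot be given to a single gene. The other SNAI2 summit, 9205 bp above the upper end, had an enrichment of 2.90 and lay 732 bp from the far end of that noncoding gene. The counting intervals of the SNAI1 and SNAI2 start sites overlapped.

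TWIST1 and TWIST2 encode closely related factors, and their loci differed in the number of sites. TWIST1, a regulator of mesoderm and of the skull, spans 19113047 to 19117636 on chromosome 7 and had a single interval, 19116206 to 19117974, over its upper end. Its summits 221 and 1064 bp inside that end had enrichments of 6.27 (5.32 to 7.33) and 3.35 (2.67 to 4.16), with pileups of 153 and 80. No other summit was called until 64.3 kb above the gene and 134.8 kb below it, the latter in HDAC9. The pileup of 153 was the lowest maximum among the 10 genes, at percentile 16.7 of protein-coding genes with an accessible end.

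TWIST2, known for its role in the dermis, spans 238848085 to 238910534 on chromosome 2 and had 15 summits in 9 intervals. The median over 2663 protein-coding genes with windows of 0.8 to 1.25 times its length was 4 summits, and TWIST2 lay at percentile 98 of them. The summit at its start, shown in the printed window, had an enrichment of 6.79 (5.94 to 7.73) and 227 overlapping fragments; an end of the noncoding gene LOC100287387 lay 141 bp away. The strongest TWIST2 site was 16335 bp into the gene, in the interval 238864056 to 238864981, with an enrichment of 12.6 (11.7 to 13.5) and 791 overlapping fragments. Its intervals for counting error do not overlap those of the start site. A further interval, 238869876 to 238871326, held 4 summits with enrichments of 1.54 to 6.65. The weakest TWIST2 summits were close to the threshold of the list, and at a −log10 q of at least 10 the number fell from 15 to 9. The local background was above the genome-wide value of 20.3 fragments at all 15 summits, at 1.07 to 3.05 times that value, whereas it was raised at 46.4% of summits on autosomes, X and Y.

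ZEB1 and ZEB2 encode large zinc finger repressors of epithelial genes and are targets of miR-200. ZEB1 spans 31318417 to 31529804 on chromosome 10 and had 12 summits in 8 intervals, with a median of 7 over 880 genes of like window length. The interval over its start, 31318301 to 31319633, had summits 573 and 871 bp inside the gene with enrichments of 8.74 (8.10 to 9.41) and 4.06 and pileups of 690 and 320. Both of these summits also lie within the antisense gene ZEB1-AS1, and an end of that gene lies further inside ZEB1. The next strongest ZEB1 sites lay 35368 and 108175 bp into the gene, with enrichments of 7.22 (6.13 to 8.45) and 6.43 (5.40 to 7.59) at the genome-wide background. Another 4 ZEB1 summits, with enrichments of 1.74 to 2.44, lay within 1000 bp of an end of the pseudogenes SPTLC1P1 or LOC100505502 in the ZEB1 gene body. At a −log10 q of at least 10 the number of ZEB1 summits was 6, so the count depends on weak lines. Nothing was called for 75.4 kb below the start.

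ZEB2 spans 144384081 to 144520119 on chromosome 2 and had 5 summits in 4 intervals, none near an end. The one closest to its listed start lay 2485 bp downstream in the interval 144516542 to 144517911 and was the strongest, with an enrichment of 11.4 (10.3 to 12.5) and 439 overlapping fragments. On the upstream side the next summit was 33.4 kb away, inside the noncoding gene LINC01412. Summits 63310, 92867 and 105436 bp from the upper end had enrichments of 10.6 (9.31 to 12.1), 5.02 and 8.82, all at the genome-wide background. Widening the distance to 2500 bp made ZEB2 the eighth gene with a summit near an end. ZEB1 thus had its highest site within 1000 bp of its start. At ZEB2 the start window shown above held none and the highest site lay 2485 bp downstream. In both genes the counting interval of the highest site overlapped that of the next strongest.

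CDH1 encodes E-cadherin, the adhesion protein of epithelial junctions that SNAI and ZEB factors repress. It spans 68737292 to 68835537 on chromosome 16. No summit was called from 29.6 kb below its lower end, inside the neighbouring cadherin gene CDH3, to 23.7 kb inside CDH1, a stretch of 53.4 kb around its start. CDH1 was nonetheless not without accessible sites. A summit 65178 bp into the gene, in the interval 68802213 to 68802653, had an enrichment of 12.5 (11.3 to 13.8) and 398 overlapping fragments, and others at 23731 and 53114 bp had 4.08 (3.27 to 5.03) and 2.86 (2.19 to 3.67). The remaining summit in its window, 8089 bp above the upper end, had an enrichment of 11.9 and 491 overlapping fragments. It lay 95 bp from an end of TANGO6, a gene of Golgi organisation, and is counted for CDH1 only because of the 10 kb rule.

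CDH2 encodes N-cadherin, spans 27932879 to 28177130 on chromosome 18 and is the longest of the 10 genes. It had 9 summits in 8 intervals, with a median of 7 over 759 genes of like window length. At its start, in the interval 28176930 to 28178500, a summit 140 bp upstream had an enrichment of 8.95 (8.22 to 9.72) and 561 overlapping fragments, and another 1010 bp upstream had 3.12. The strongest CDH2 summit, and the strongest at any of the 10 genes, lay 61773 bp from that end inside the gene, in the interval 28114970 to 28115598, with an enrichment of 14.2 (13.3 to 15.1) and 948 overlapping fragments. CDH2 sites at 14691 and 111534 bp from the same end both had an enrichment of 7.32 and 155 overlapping fragments. No summit lay within 63.9 kb of the lower-coordinate end on the gene's side. A second RefSeq start in the body of CDH2 had its nearest summit 28955 bp away. The 2 cadherin genes thus differed at their starts, with an enrichment of 8.95 at CDH2 and no called site at CDH1, while both had a site above 12 inside the gene.

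PRRX1, a homeodomain factor of limb and craniofacial mesenchyme, spans 170662768 to 170739421 on chromosome 1. It had 2 summits, the lowest number per length of the 10 genes at 0.207 per 10 kb of window, against a median of 0.589 over protein-coding genes. Genes of like window length had a median of 4. No summit was called from 39.4 kb below its lower end to 45.4 kb inside the gene, a stretch of 84.8 kb that holds the listed start. The stronger PRRX1 summit, 45440 bp into the gene in the interval 170707969 to 170708539, had an enrichment of 10.1 (8.91 to 11.3) and 273 overlapping fragments. The other, 49090 bp into the gene, had 4.74 (3.97 to 5.62) and 131. Both were in the gene body, and the nearest gene end was 27563 bp away.

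VIM encodes vimentin, the main intermediate filament protein of mesenchymal cells, and spans 17228241 to 17237593 on chromosome 10. Its pileups were the highest of the 10 genes. Summits 490 and 932 bp downstream of the start shared the interval 17228185 to 17230587 and had pileups of 2703 and 2623, at percentile 99.1 and 99 of all summits on autosomes, X and Y. Their enrichments were 6.64 (6.39 to 6.90) and 6.32 (6.08 to 6.56). The local background by which enrichment is divided was 406.2 and 414.4 fragments there, 20 and 20.4 times the genome-wide value. Such a background or a higher one was found at 0.461% of all summits. By pileup VIM lay at percentile 94.3 of protein-coding genes with an accessible end and by enrichment at percentile 24.5. Beyond the other end of VIM, summits 1399, 2417 and 3507 bp away had enrichments of 4.46, 2.55 and 1.46 over backgrounds of 214.7, 202.6 and 195.3 fragments. The first of these is thus a site of 961 fragments with a modest enrichment. Both start-site summits also lie within the antisense gene VIM-AS1, and an end of that gene lies inside the same interval. The site thus cannot be given to a single gene.

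**Figure D3:**
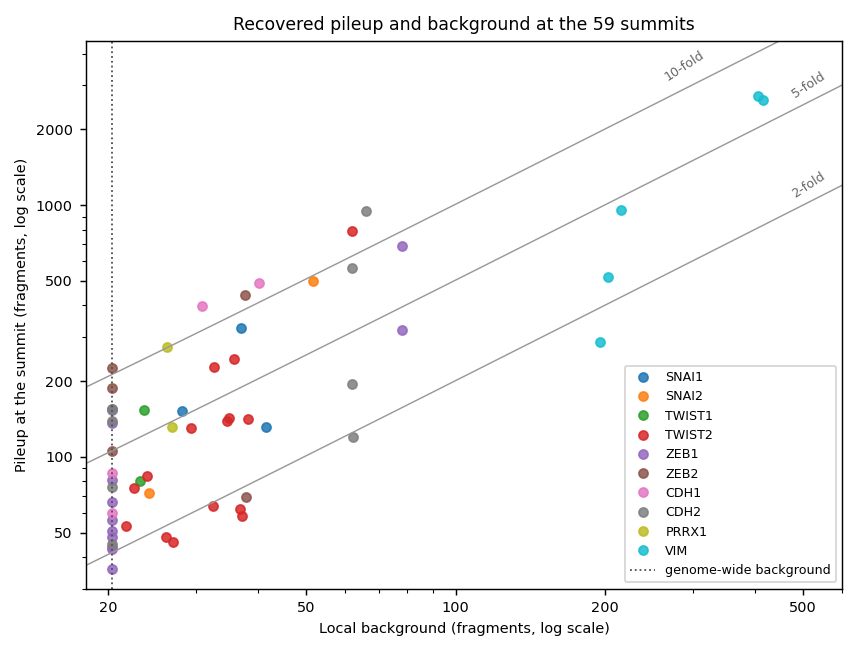
Pileup at the summit against local background (both in fragments, log scales) for the 59 summits, coloured by gene. Grey lines mark equal enrichment of 2-, 5- and 10-fold and the dotted line marks the genome-wide background of 20.3 fragments. The 5 VIM summits stand apart at backgrounds of 195.3 to 414.4, and 20 summits lie on the dotted line.

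The background was raised above the genome-wide value at 39 of the 59 summits, and at all 9 of those near a gene end. For summits near an end of any protein-coding gene the share was 91.1%. Of the 50 summits elsewhere it was raised at 30. The 20 summits at the genome-wide background belonged to ZEB1 (10), CDH2 (5), ZEB2 (3) and CDH1 (2), the 4 longest genes. Apart from VIM, the highest background at any summit of the EMT genes was 78.1 fragments, at the ZEB1 start. Of the 44 intervals, 32 held a single summit and 12 held several. Their length ran from 291 bp in CDH1 to 2403 bp at the VIM start, with a median of 553 bp.

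The 10 kb limit decided a few values. Just inside it lay the SNAI2 summit at 9205 bp and the TANGO6 summit at 8089 bp from CDH1. Just outside it lay a summit 10646 bp below CDH2 with an enrichment of 4.03 and one 11795 bp below VIM with an enrichment of 12.4 and 1028 overlapping fragments, inside VIM-AS1. With a window of 25 kb the latter raised the highest enrichment of VIM from 6.64 to 12.4.

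Genes that work with these factors were compared by list. Windows of 10 kb can hold a neighbour's site, so the counts near gene ends are the closer measure. The shares over all protein-coding genes, to be read beside each count, are 65.7% near an end and 89.8% for any summit. Of 9 other inducers of EMT, 4 (44.4%) had a summit near an end and 6 (66.7%) had any, both below those shares. TCF3 (15.5) and TCF4 (13.3, with no summit near an end), genes for E-proteins that pair with TWIST factors, had the highest enrichments, FOXC2 (4.56) and SNAI3 (5.40) the lowest, and GSC, TBXT and KLF8 had none. Of 11 corepressors that SNAI and ZEB factors recruit or use, all had a summit and 8 (72.7%) had one near an end, against 89.8% and 65.7%, with a median enrichment at the ends of 14.3. KDM1A, the histone demethylase LSD1, had 17.5 and EZH2, the H3K27 methyltransferase, 15.6, while AJUBA had 5.53 and CTBP1 9.19 (with no summit near an end). The 3 catenin genes, whose products tie cadherins to actin, all had a summit near an end, with highest enrichments of 16.2 at CTNND1 (14.5 near an end), 13.9 at CTNNB1 and 9.36 at CTNNA1.

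Epithelial and mesenchymal genes had the same counts, with a lower median enrichment at the epithelial gene ends. Pileup at the gene ends was not compared between these lists. Of 20 epithelial junction and keratin genes, 11 (55%) had a summit near an end and 18 (90%) had any, against 65.7% and 89.8% of all protein-coding genes. Of 20 mesenchymal genes the counts were also 11 and 18. The median enrichment at the ends was 3.78 in the epithelial list and 7.32 in the mesenchymal list, both below the 11.7 of all protein-coding genes, and the difference was not tested. In the epithelial list TJP1 (17.3), a scaffold of tight junctions, and CLDN4 (16.4, with no summit near an end) were highest. CLDN3 (2.01) and PKP3 (6.19, and 5.23 near an end) were lowest, and CLDN1 and MAL2 had no summit. In the mesenchymal list ITGA5 (15.6, and 4.11 near an end), the fibronectin receptor subunit, and FN1 (15.1), fibronectin, were highest. COL1A2 (3.75) and THY1 (4.04), both with no summit near an end, were lowest, and CDH11 and COL3A1 had no summit. Of 11 regulators of the epithelial state, 10 (90.9%) had a summit and 4 (36.4%) had one near an end, against the same 89.8% and 65.7%. KLF5 (16.3) and ESRP2 (15.5) had the highest enrichments, neither of them at a summit near an end. OVOL2 (3.59, with no summit near an end) and ELF3 (3.88, and 3.58 near an end) had the lowest. ESRP1, which encodes an epithelial splicing factor, had no summit.

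The cell line was checked against markers, among them CDH1, CDH2 and VIM. A summit near an end was present at 5 of 9 mesenchymal markers (55.6%) and 4 of 8 epithelial ones (50%), both below the 65.7% of all protein-coding genes, so presence did not separate them. The median enrichment at those ends was 8.95 over the 5 mesenchymal markers, which is the value of CDH2, and 2.04 over the 4 epithelial ones. The values overlapped only through KRT8, and the difference was not tested. The mesenchymal values were FN1 15.1, SPARC 9.96, CDH2 8.95, VIM 6.64 and PDGFRB 3.70. The epithelial values were KRT8 12.7, EPCAM 2.11, CLDN7 1.98 and KRT18 1.75. The KRT8 summit was also the strongest in the KRT18 window, where it was not near an end. That site thus cannot be given to a single gene. For 5 leukocyte markers the count was 1 (CD3E, 14.5) and for 4 endothelial markers 2, with a median of 3.04. Genes without a summit near an end included COL1A1, COL1A2, THY1 and TGFBI among the mesenchymal markers and CDH1, CLDN4, ESRP1 and GRHL2 among the epithelial ones.

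**Figure D4:**
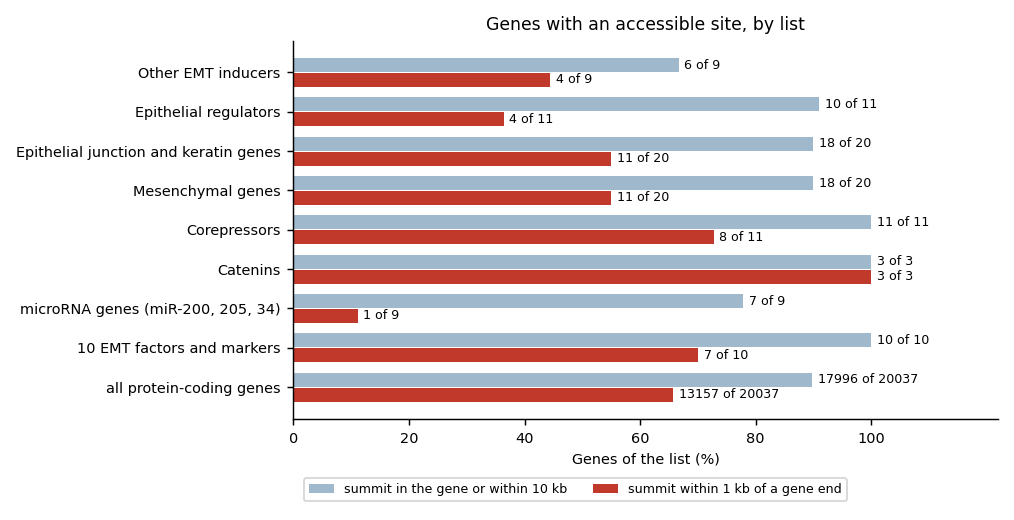
Share of genes (%, horizontal axis) with a summit in the gene or within 10 kb (blue) and within 1 kb of a gene end (red), for each gene list; the numbers are genes with a summit of genes in the list. The 10 EMT genes have 10 and 7, and the epithelial junction and mesenchymal lists both have 18 and 11 of 20.

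Of 9 microRNA genes that target ZEB or SNAI transcripts, 7 had a summit within 10 kb and 1 had one within 1000 bp of an end. The shares over all microRNA genes were not computed, so these counts have no background beside them. The mature miR-200 sequences fall into 2 seed groups, shown because ZEB1 and ZEB2 are their best known targets; capitals mark the seed, bases 2 to 8.
hsa-miR-200b-3p: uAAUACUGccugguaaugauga
hsa-miR-200c-3p: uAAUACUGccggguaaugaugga
hsa-miR-429: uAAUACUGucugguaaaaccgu
hsa-miR-200a-3p: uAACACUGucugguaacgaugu
hsa-miR-141-3p: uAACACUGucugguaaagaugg

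The first 3 share the seed AAUACUG and the last 2 share AACACUG. MIR200B, MIR200A and MIR429 lie together on chromosome 1, where the 2 summits within 10 kb had enrichments of 1.51 and 1.64. The closer one lay 656 bp from MIR429, with a −log10 q of 1.35 in the authors' deposited table, whose lowest value is 1.30. That summit lay inside the gene MIR200BHG, 595 bp from an end of it. It was the only summit within 1000 bp of an end among the 9 microRNA genes examined. MIR200C and MIR141 lie on chromosome 12 with a summit 1606 bp from MIR200C (enrichment 4.98), inside the noncoding gene LOC105369634, and another 6990 bp away with 14.6 that lay 3 bp from an end of PHB2. MIR205 had 1 summit, 3615 bp away, with an enrichment of 7.49, and MIR34A had 2, the stronger with 3.91 at 6235 bp. For MIR34B and MIR34C none was within 10 kb, the nearest being 13.8 and 13.3 kb away. A microRNA can be transcribed from a distant start, so these distances are to the hairpin and not to its promoter.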

How the data were processed

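Per the submitters' processing notes, fastp 0.20.0, Bowtie2 2.4.3, deepTools 3.5.0, SAMtools and MACS2 2.2.7.1 were used with hg38, with no role given. The deposited peak list has 10 columns and no header. Its enrichment (a ratio, or fold), its −log10 p and −log10 q, and its score are the authors' values, pooled over the libraries; the score was not used. The pileup and local background were solved from the deposited enrichment, taken as (pileup + 1)/(background + 1), and the deposited −log10 p, taken as a Poisson tail. The pileup was whole within 0.05 at 99.96% of lines. All of 5000 simulated cases (100%) were recovered. They were made with the same formulas, so this checks the solving and not the formulas. A background over 0.2% above the lowest recurring value, 20.3, was called raised. Genes and sequences were RefSeq, GRCh38.p14. Calculations used Python 3.11.15 with NumPy 2.4.6 and pandas 2.3.3. The members and gene lists were chosen with earlier results of these data known. All 10 members were named, with the strongest summit, the one nearest an end and, for members with over 5 summits, the 3 strongest; from other lists, the 2 highest and 2 lowest genes and those without a summit. Distances were measured to the summit. No test between samples was fitted, because the list names no library. Alternatives were other windows, a stricter q, 1 summit per interval, short intervals and nearest-gene assignment.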

Additional observations from a re-analysis of the deposited data

How the results depend on the processing

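The 4 summary values (members with a summit, members with a summit near an end, summits at the members and the median of the highest enrichment) stayed within 1.5 times, or within the order-statistic interval of the median (6.64 to 12.6), under all alternatives run. That interval is wide, running from the value of VIM to that of TWIST2. Some alternatives could not move a value. The longest member interval was 2403 bp, so a limit of 10 kb removed none. Keeping 1 summit per interval cannot change a gene's highest enrichment. The number of summits ranged from 43 at a −log10 q of at least 10 to 71 with a 25 kb window, against 59. Members with a summit near an end numbered 6 within 500 bp and 8 within 2500 bp, against 7. Members with a summit fell to 8 of 10 when only the gene body counted, because SNAI1 and SNAI2 have summits only outside the gene. The median of the highest enrichment was 9.82 or 10.7. The order of the genes changed for 8 of 10 when pileup replaced enrichment, and VIM moved furthest. The number of summits of single genes changed by over 1.5 times in 12 of 60 cases. Counting error in a pooled list does not measure the spread between libraries. Leaving out single libraries was not run because the list names none. No paired analysis was possible because the columns carry no replicate number.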
